A study of Mus musculus with 2 samples.

Results

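Basal cells are the innermost layer of the corneal epithelium, the cells that sit on its basement membrane. They were taken here as the cells that the authors' deposited cell table labels Basal, without the cells labelled LSC. There were 4887 of them among 17808 cells, 2505 of 9605 cells in a control library and 2382 of 8203 cells in a diabetic library. Basal cells made up 26.1% (95% Clopper-Pearson interval 25.2 to 27.0%) of the control and 29.0% (28.1 to 30.03%) of the diabetic library.

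The mice were C57BL/6J males, 20 weeks old, and the epithelium of their corneas was taken. Each library was 1 pool of 4 corneas from 2 mice. Diabetic mice had received 1 injection of streptozotocin (STZ, a toxin of the insulin-producing beta cells) at 160 mg/kg and had kept a blood glucose over 250 mg/dL across the 12 weeks of the study. Control mice had received sodium citrate buffer. Single cells were sequenced with a droplet assay that reads the 3′ end of polyadenylated RNA and counts each captured molecule once by its unique molecular identifier (UMI). With 1 library per group there was no replicate, so no test between groups could be made and no p-value is given. A level is a gene's UMIs summed over the Basal cells of a library and scaled to 1000000 UMIs in all (CPM), and every interval is a 95% interval for counting error only. The library and the group cannot be told apart.

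The corneal epithelium renews itself from stem cells at its rim, the limbus, whose progeny move in as basal cells, divide, and leave the basement membrane to become wing and then squamous cells. Basal cells are anchored by hemidesmosomes, in which the integrin formed by Itga6 and Itgb4 and the transmembrane collagen Col17a1 link keratin filaments to laminin. The cornea lies open to glucose from the aqueous humour and tears, and slow healing and loss of nerve fibres are known of the diabetic cornea.

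Basal cells had a median of 13146 UMIs and 2999 genes in the control and 14438.5 UMIs and 3168.5 genes in the diabetic library, and a median mitochondrial share of 1.81% and 1.88%. Between the libraries 18 cell barcodes were shared, and 2 of them were labelled Basal in both. Markers of 8 cell types that should be absent or rare (immune cells, keratocytes, 2 kinds of endothelium, melanocytes, Schwann cells, neutrophils and goblet cells) summed to at most 6.31 CPM per list in Basal cells, with Cd74, H2-Ab1, H2-Eb1, Ptprc and Tyrobp together at 0.981 CPM in the control and 0.237 CPM in the diabetic library. Kera, Lum, Col1a1 and Col1a2 of the keratocyte list were not among the 17492 genes counted. Nor were Cdh5 and Cldn5 of the vascular endothelium, Col8a2 of the corneal endothelium, Tyrp1, Sox10 and Muc5ac. The keratocyte, vascular endothelium and goblet sums thus rest on 1 gene each, and a low sum there says little. The goblet marker Spdef, the neutrophil marker S100a8 and the endothelial marker Car3 were at 0. RNA of other epithelial layers was present. The 4 Squam markers summed to 97.4 CPM in control and 55.5 CPM in diabetic Basal cells, against 29673 and 41294 CPM in Squam cells themselves.

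The 5 marker genes of the label set Basal cells apart from the outer layers, but not from the TAC1 cells. Itgb4, the beta subunit of the hemidesmosome integrin (chromosome 11, 115974709 to 116008412 on GRCm38), stood at 162 CPM in the control library and 147 CPM in the diabetic one, against 42.4 and 49.9 CPM in all other cells. Col17a1 (chromosome 19, 47646344 to 47692094) was at 1281 and 1387 CPM, against 453 and 545 CPM. Wnt10a, a secreted Wnt ligand (chromosome 1, 74791516 to 74804179), was at 97.5 and 99.3 CPM, against 23.3 and 33.5 CPM. These 3 genes were about as high in TAC1 cells, where Itgb4 stood at 174 and 145 CPM, Col17a1 at 1440.4 and 1414 CPM, and Wnt10a at 106 and 111 CPM. The metallothioneins Mt1 and Mt2, small proteins that bind zinc and copper, had their highest level in control Basal cells. Mt1 (chromosome 8, 94179082 to 94180327) had 1053 CPM in control Basal cells and 921 CPM in diabetic ones, and at 962 and 994 CPM in TAC2 cells, so in the diabetic library TAC2 cells were higher. Mt2 (chromosome 8, 94172664 to 94173568) was at 956 and 802 CPM in Basal cells and at 851 and 779 CPM in TAC2 cells. Mt1 and Mt2 are near copies of each other, so their reads can be split between them. None of the 5 genes differed by 1.5-fold between the libraries. Since the labels were made from these cells, the markers describe the label and are no test of it.

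**Figure D1:**
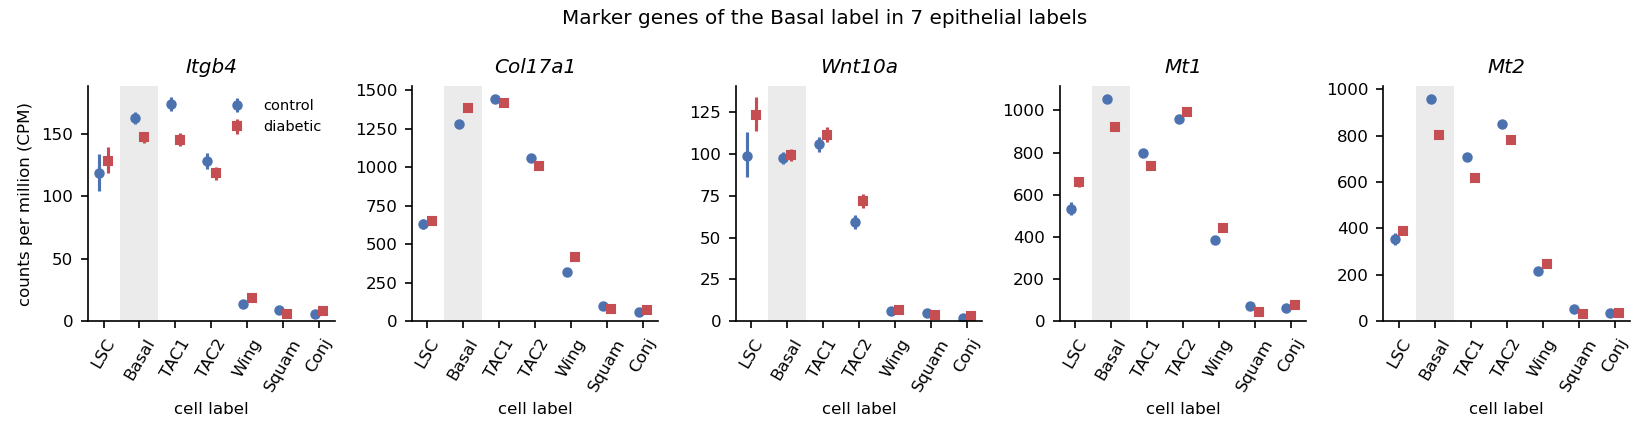
Level of the 5 Basal marker genes in CPM (vertical axis) in each of 7 epithelial labels (horizontal axis) in the control (circles) and diabetic (squares) library, with 95% Poisson intervals for counting error; the Basal label is shaded. LSC, Basal, TAC1 and TAC2 cells carried each gene and Squam and Conj cells had little, and Itgb4, Col17a1 and Wnt10a were about as high in TAC1 (174, 1440.4 and 106 CPM in control) as in Basal cells.

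At an equal depth of 5000 UMIs per cell, UMIs of Itgb4 were found in 52.7% of control (interval 50.6 to 54.7%) and 49.2% of diabetic (47.1 to 51.2%) Basal cells, and in 5.01% and 7.33% of Wing cells. For Wnt10a the shares were 37.5% and 35.6% of Basal cells and 2.60% and 2.41% of Wing cells. Col17a1 was found in 99.0% and 98.7% of Basal cells. Unthinned, Itgb4 was found in 76.2% and 78.0% of Basal cells at median depths of 13146 and 14438.5 UMIs, and in 2 of 26 control Immune cells (7.69%) at a median depth of 2424 UMIs. The shares for Itgb4 and Wnt10a in Basal cells thus stood well above those in a layer that has left the basement membrane.

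The promoters of Mt1 (chr8:94178839-94179138, plus strand) and Mt2 (chr8:94172368-94172667, plus strand) are shown because both genes are markers of the label and metallothionein genes are known to be switched on through metal response elements. The windows are those of RefSeq on GRCm38.p6, from 250 bases before to 50 bases after the start of the gene in RefSeq. That start can differ from the gene positions given in this text, as it does for Mt2. Capitals mark matches on either strand to TGCGCNC or TGCACNC, the core of that element, and in Mt1 also 1 match to a glucocorticoid response element.
Mt1: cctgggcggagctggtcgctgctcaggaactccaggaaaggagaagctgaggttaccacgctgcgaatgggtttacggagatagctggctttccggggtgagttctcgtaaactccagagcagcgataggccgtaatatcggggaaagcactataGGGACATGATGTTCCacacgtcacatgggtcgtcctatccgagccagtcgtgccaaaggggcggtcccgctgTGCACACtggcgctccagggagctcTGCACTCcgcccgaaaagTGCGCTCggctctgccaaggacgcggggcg
Mt2: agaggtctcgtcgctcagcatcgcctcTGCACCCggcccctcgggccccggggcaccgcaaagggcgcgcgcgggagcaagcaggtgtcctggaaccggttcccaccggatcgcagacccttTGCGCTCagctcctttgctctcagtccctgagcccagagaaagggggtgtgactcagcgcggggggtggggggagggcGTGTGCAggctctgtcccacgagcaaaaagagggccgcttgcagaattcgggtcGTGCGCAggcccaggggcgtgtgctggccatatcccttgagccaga
Mt1 held 3 and Mt2 held 4 metal matches. Of 32851 promoter windows of the same length, 25.7% held at least 1 such match, so a match is common, and it is a description of the letters and not of binding.

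Genes with at least 2 times the level of all other cells in each library numbered 687 of 10443 (6.58%), and 1574 genes were at least 2 times lower. The count was 331 under median-of-ratios scaling and 346 after thinning to 5000 UMIs. Of the 12 leading genes on the high side, Spon2, a secreted matrix protein, stood at 86.1 CPM in the control library and 76.1 CPM in the diabetic one, 4.52 and 3.43 times the level of the other cells. Sparc, a matrix protein that binds collagen, was at 44.5 and 57.6 CPM (4.25 and 3.51 times). Igfbp5, which binds insulin-like growth factors, was at 121 and 163 CPM (4.04 and 3.73 times). The others were Antxr1, a receptor for matrix collagens and anthrax toxin, Cpe, a carboxypeptidase of hormone precursors, the ferritin light chain Ftl1, the LIM protein Crip1, the adhesion molecule Lsamp, the secreted Wnt modulator family member Dkk3, the gap junction protein Gja1, the taurine transporter Slc6a6, and Itgb4. Their ratios lay between 2.72 and 4.52 over both libraries. These ratios are against all other cells together, and TAC1 cells carried these genes too. In TAC1 cells Spon2 was at 73.2 and 61.9 CPM, Sparc at 49.0 and 57.2 CPM and Igfbp5 at 119 and 134 CPM. Ftl1 was at 652 and 673 CPM there, against 630 and 654 CPM in Basal cells.

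The 12 leading genes on the low side belong to the outer layers. The squamous surface gene Psca was at 80.0 and 38.5 CPM in Basal cells, 0.00980 and 0.00370 of the level of the other cells. The wound and outer layer keratins Krt6a (84.3 and 35.5 CPM) and Krt6b (46.2 and 14.8 CPM), the mucosal keratin Krt13 (29.7 and 13.1 CPM), the skin protease Asprv1 (85.2 and 33.8 CPM), the membrane mucin Muc4 (10.2 and 4.74 CPM) and the homeodomain gene Hopx (28.5 and 9.95 CPM) were of the same kind. Lce3a, Pglyrp1, Cysrt1, Nccrp1 and Ly6g6c were between 3.23 and 23.5 CPM in Basal cells of the 2 libraries, and at 570.2 CPM or more in the other cells. All 12 were lower in diabetic than in control Basal cells, a point taken up below with the levels in other layers.

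By overall profile the nearest label was TAC1. Across genes, which are not replicates, the correlation of log levels with Basal cells (Pearson) was 0.982 in both libraries for TAC1, 0.955 and 0.951 for TAC2, 0.942 and 0.938 for LSC, 0.922 and 0.929 for Wing, 0.830 and 0.818 for Conj, and 0.755 and 0.732 for Squam cells. Against TAC1 cells, 20 genes were at least 2 times higher in Basal cells in both libraries and 406 were lower, against 5366 and 1421 in the comparison with Squam cells. Of all genes, 719 had their highest level among the 7 epithelial labels in Basal cells in both libraries, and their lead was small. Lpar6, a receptor for lysophosphatidic acid, was at 54.5 and 53.02 CPM in Basal and 41.1 and 35.9 CPM in TAC1 cells, 1.33 and 1.48 times higher. Plin2, which coats lipid droplets, was at 37.6 and 60.8 CPM, 1.34 and 1.48 times the next label. The clock-linked nuclear receptor Rora was at 105 and 112 CPM, 1.26 and 1.24 times higher than in TAC1 cells.

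Variation among Basal cells was measured gene by gene. At 5000 UMIs per cell the median ratio of variance to mean over cells (Fano factor) of genes of 50 CPM or more was 1.05 in the control and 1.06 in the diabetic library. The nuclear noncoding RNA Malat1 stood at 18.8 and 23.6, the corneal keratin Krt12 at 10.7 and 11.7, the corneal crystallin Aldh3a1 at 8.66 and 9.95, and the glutathione transferase Gsta4 at 10.4 and 8.56. The limbal and conjunctival keratin Krt15 had 5.65 and 11.1. The other 5 of the top 10, AY036118, Slurp1, S100a6, Tmsb4x and Aqp5, lay between 5.04 and 8.11. This ratio can be large in an abundant gene whose spread is small beside its mean, so it does not rank relative spread. Control means were 111 UMIs per cell for Krt12 and 0.964 UMIs for Krt15. Krt12 had a median of 107 UMIs (lower and upper quartile 86 and 131) per control and 116 UMIs (93.25 and 142) per diabetic cell at that depth. Over 2365 control and 2318 diabetic cells, which share a library and its depth, Krt12 went with its partner Krt5 (Spearman 0.61 and 0.48) and against Krt14 (-0.36 and -0.46). Mt1 and Mt2 went together more weakly (0.33 and 0.26).

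A fresh grouping of all cells by the Leiden method split the Basal cells into 4 clusters that held most of them, and it was run after the first results were known. The clusters were formed from genes that vary among cells within the libraries, and the 2 libraries were not aligned to each other first. Genes that differ between the libraries could thus shape the clusters. The genes and sizes of the clusters describe the grouping and are no result of their own. The largest shared cluster (1019 control and 572 diabetic Basal cells) was led by Apoe, Tmem176b, Tmem176a and Krt14, with Krt14 at 687 and 936 CPM. A second (653 and 773 cells) was led by the immediate early genes Fosb, Egr1, Fos and Jun, with Fos at 604 and 856 CPM against 108 and 86.5 CPM in the other Basal cells. Another (591 and 418 cells) was led by Calml3, Gsta2 and Rbp2, with Calml3 at 2515 and 1918 CPM. Its cells had less Krt14 (158 and 264 CPM), Itgb4 (78.5 and 81.2 CPM) and Wnt10a (31.5 and 34.5 CPM).

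The fourth held 540 diabetic Basal cells and 0 control Basal cells. The Clopper-Pearson interval of that control share, for counting error only, reached up to 0.147% of the control Basal cells. It was led by Cyp2b19 (177 CPM, against 34.5 CPM in the other diabetic Basal cells), Slc15a2, Ctxn3, Car6, Map3k2 and Defb1, and it was low in Fos (42.5 CPM, against 452 CPM). Its cells had fewer UMIs (median 10068, against 13828 to 16307 in the diabetic cells of the other 3) and a higher mitochondrial share (median 2.28%). They also had more Malat1 (20407 CPM), Lars2 (1454 CPM) and Gm42418, a transcript that overlaps ribosomal RNA (39343 CPM, against 9849 to 21360 CPM). Its cells had Col17a1 at 1722 CPM and Itgb4 at 151 CPM, against 1387 and 147 CPM in all diabetic Basal cells. Mt1 was at 1110 CPM and Mt2 at 798 CPM, against 921 and 802 CPM. The marker Wnt10a was lower, at 60.5 CPM against 99.3 CPM, and so was Krt14, at 399 CPM against 609 CPM. A cluster of cells of 1 library may be that library and not a cell state, and which of these it is was not tested. For some results that rest on these cells, values are also given without them, and for others they are not.

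**Figure D2:**
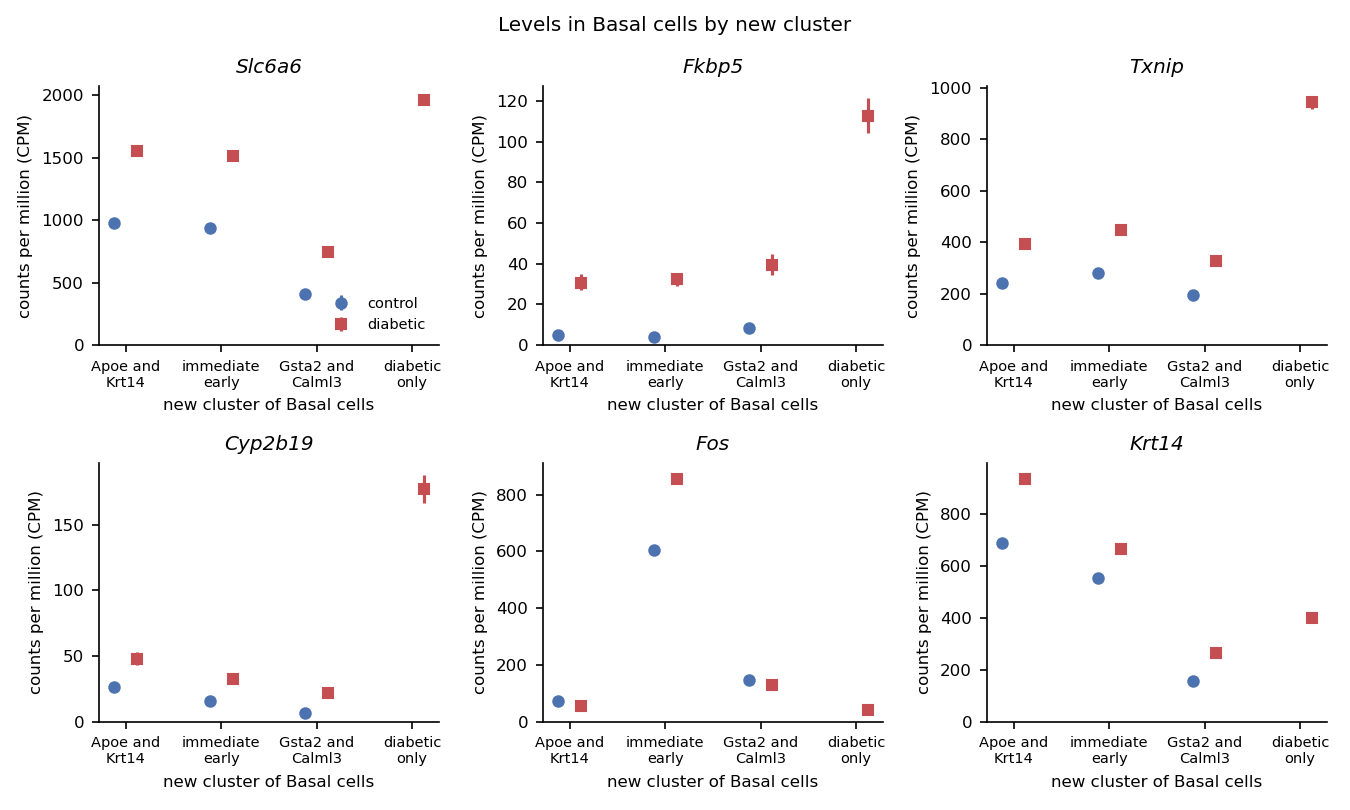
Level of 6 genes in CPM (vertical axes) in the Basal cells of 4 clusters (horizontal axis) in the control (circles) and diabetic (squares) library, with 95% Poisson intervals; the diabetic-only cluster has no control cells. Fkbp5, Txnip and Slc6a6 were higher in diabetic cells of each of the 3 shared clusters and highest in the diabetic-only cluster (113, 943 and 1957 CPM), while Fos was high in 1 cluster alone (604 and 856 CPM).

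The main comparison asked how Basal cells of diabetic mice differ from those of control mice. A gene was counted when its CPM differed by 1.5-fold or more, it had 50 or more counts over both libraries, and its Poisson intervals did not overlap, and these 3 conditions are the rule of size. Of 11526 genes measured, 303 (2.63%) were higher and 274 (2.38%) lower in diabetic Basal cells. The median log2 ratio of all genes was 0.0069. The count of higher genes depended on the diabetic-only cluster. Without its cells the counts were 167 higher, 152 of them from the 303, and 279 lower, 226 of them from the 274. Of the higher genes 254, and of the lower genes 171, had a level in Basal cells of at least 0.2 of that in their highest epithelial label, and the genes named next were taken from these.

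Of the 12 genes named on the higher side, Fkbp5 had the largest ratio. This gene of a co-chaperone that dampens the glucocorticoid receptor (chromosome 17, 28399094 to 28517527) was at 5.47 CPM (interval 4.69 to 6.35) in control and 48.0 CPM (45.7 to 50.4) in diabetic Basal cells, 8.77-fold higher (7.49 to 10.3). Tsc22d3, which encodes the glucocorticoid-induced leucine zipper (chromosome X, 140539528 to 140600659), was at 111 and 230.3 CPM, 2.07-fold higher. Txnip, which binds thioredoxin and restrains glucose uptake (chromosome 3, 96557957 to 96561883), was at 239 and 500.1 CPM, 2.09-fold higher (2.04 to 2.15). All 3 were higher in each cluster that both libraries filled. There Fkbp5 was 4.69- to 8.30-fold, Txnip 1.59- to 1.69-fold and Tsc22d3 1.64- to 1.92-fold higher. In the diabetic-only cluster they stood at 113, 943 and 395 CPM, and without that cluster the log2 ratio of Fkbp5 was 2.62 against 3.13 with it, and that of Txnip 0.75 against 1.07.

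The promoter of Txnip (chr3:96557707-96558006, plus strand, RefSeq on GRCm38.p6) is shown because the gene is a known target of the glucose-sensing factors Mlx and Mlxip through paired E boxes, the carbohydrate response element. Capitals mark the match to that element and, upstream of it, a match to a glucocorticoid response element.
Txnip: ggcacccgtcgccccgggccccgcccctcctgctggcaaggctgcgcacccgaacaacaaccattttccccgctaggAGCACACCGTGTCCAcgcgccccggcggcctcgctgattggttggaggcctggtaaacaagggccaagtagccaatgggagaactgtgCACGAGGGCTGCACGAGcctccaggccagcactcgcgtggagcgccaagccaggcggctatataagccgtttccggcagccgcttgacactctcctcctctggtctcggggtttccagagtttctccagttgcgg
The carbohydrate match lay 85 to 69 bases before the start, and 16 of 32851 promoter windows (0.0487%) held such a match, Txnip alone among the 12 glucose response genes with a window. A glucocorticoid match was in 0.472% of windows, and among 13 genes of the glucocorticoid list with a window in that of Sgk1 only. The window of Fkbp5 (chr17:28486100-28486399, minus strand), which lies inside the gene span given above, held no match. This says only that these letters are not in it.

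Slc6a6 carries taurine, an osmolyte, into the cell (chromosome 6, 91684053 to 91759066). It had 801 CPM in control Basal cells and 1452 CPM in diabetic ones, 1.81-fold higher (1.79 to 1.84), and 1.58- to 1.83-fold higher in the shared clusters. Cyp2b19, an epoxygenase of keratinocytes (chromosome 7, 26757142 to 26772630), was at 16.8 and 60.2 CPM, 3.58-fold higher, a log2 ratio of 1.84 with and 1.03 without the diabetic-only cluster. The nuclear noncoding RNA Neat1 (chromosome 19, 5824708 to 5845478) was at 214 and 464 CPM, 2.17-fold higher, and stood at 922 CPM in the diabetic-only cluster. The calcium-binding protein S100a4 (chromosome 3, 90603771 to 90606045) was at 16.7 and 33.7 CPM. Nfe2l3, a transcription factor of the Nrf family (chromosome 6, 51432670 to 51458768), was at 30.5 and 57.4 CPM, and the kinase gene Map3k2 at 26.8 and 51.0 CPM. Nfe2l3 and Map3k2 were no longer past the rule without the diabetic-only cluster, with log2 ratios of 0.46 and 0.41.

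The remaining 3 genes named on the higher side were of the immediate early class, which cells switch on within minutes of a stimulus and also during dissociation. Btg2, which restrains division (chromosome 1, 134075170 to 134079120), stood at 25.6 CPM in the control library and 66.8 CPM in the diabetic one, 2.61-fold higher (2.41 to 2.83). Fosb, an AP-1 subunit (chromosome 7, 19302696 to 19310051), was at 35.4 and 75.8 CPM, and Zfp36, which speeds the decay of messenger RNA (chromosome 7, 28376784 to 28380253), at 48.2 and 88.0 CPM. Their levels by cluster cannot show in which cells the difference lies, because genes of this class led the immediate early cluster. In that cluster Btg2 was at 48.1 and 133 CPM, Fosb at 100.1 and 183 CPM and Zfp36 at 107 and 182 CPM. In the largest shared cluster Fosb was at 6.81 and 5.27 CPM, the other way round, and neither Btg2 (15.6 and 21.5 CPM) nor Zfp36 (16.6 and 22.5 CPM) passed the rule.

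**Figure D3:**
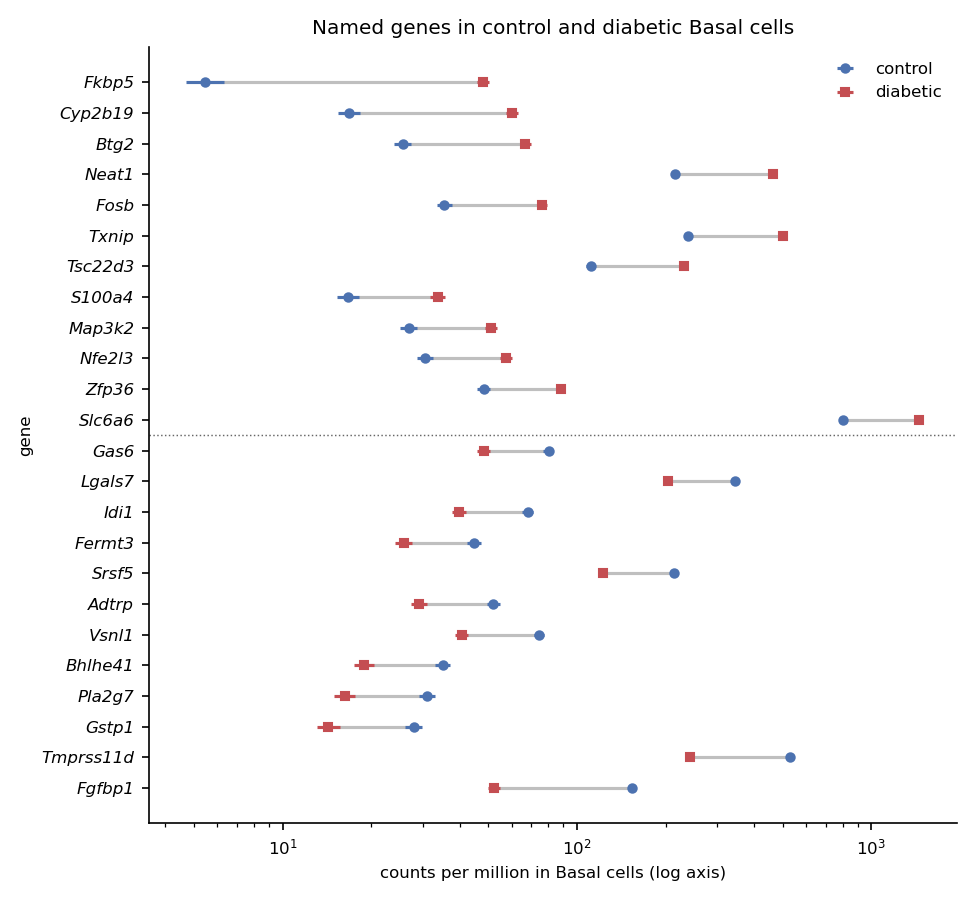
Level in Basal cells in CPM (horizontal log axis) of the 12 named genes per direction (vertical axis) in the control (circles) and diabetic (squares) library, with 95% Poisson intervals; a dotted line divides higher from lower genes. Fkbp5 had the widest gap, from 5.47 to 48.0 CPM, and Fgfbp1 the widest among the lower genes, from 153 to 52.4 CPM.

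On the lower side Fgfbp1, a carrier that frees fibroblast growth factors from the matrix (chromosome 5, 43978858 to 43981779), had 153 CPM in control Basal cells and 52.4 CPM in diabetic ones, 2.93-fold lower (2.77 to 3.09). It was highest in Wing cells, at 663 and 359.9 CPM. Tmprss11d, a membrane serine protease (chromosome 5, 86302217 to 86373420), was at 528 and 241 CPM, 2.19-fold lower (2.13 to 2.25), and had its highest control level in Basal cells. Both were lower in each shared cluster, Fgfbp1 by 2.27- to 2.48-fold and Tmprss11d by 1.78- to 2.32-fold. The splicing factor Srsf5 (chromosome 12, 80945504 to 80950507) was at 213 and 123 CPM, 1.74-fold lower.

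The other lower genes have varied roles. Pla2g7, which breaks down platelet-activating factor, was at 31.0 and 16.3 CPM, Adtrp, a hydrolase of fatty acid esters, at 52.0 and 29.2 CPM, and Idi1, an isomerase of sterol synthesis, at 67.9 and 39.7 CPM. Gas6, a ligand of the TAM receptor kinases, was at 80.1 and 48.2 CPM, and Vsnl1, a neuronal calcium sensor, at 74.4 and 40.6 CPM. Bhlhe41, a repressor in the circadian clock, was at 35.0 and 18.9 CPM. The glutathione transferase Gstp1, which has close copies, was at 28.0 and 14.3 CPM, and Fermt3, the integrin activator kindlin-3, at 44.6 and 25.8 CPM. Lgals7, the galectin of stratified epithelia, was at 344 and 203 CPM in Basal cells but at 836 and 1294 CPM in LSC cells, where it went the other way. These 12 genes stayed past the rule without the diabetic-only cluster.

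Lists of related genes put these in context. For each, the number of measured members past the rule and the median log2 ratio stand beside 2.63% higher, 2.38% lower and a median of 0.0069 over all genes. Where members with a ratio under 1 are counted, they stand beside 5646 of all 11526 measured genes. The lists were drawn up with earlier results of these data known, so their counts are descriptions and no independent evidence.

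Of the glucocorticoid response list, 5 of 14 measured genes were higher and 0 lower, with a median of 0.52. Besides Fkbp5 and Tsc22d3 they were Zbtb16 (2.63 and 7.76 CPM), Zfp36 and the phosphatase gene Dusp1, of which the last 2 also stand in the immediate early list. The receptor Nr3c1 (55.6 and 57.5 CPM), the clock gene Per1 (25.7 and 32.7 CPM) and the kinase gene Sgk1 (226 and 203 CPM) were not past the rule. In the largest shared cluster and in the Gsta2 and Calml3 cluster 3 members were higher in each.

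Of the immediate early list, 10 of 22 were higher and 0 lower, with a median of 0.51. They were Nr4a1 (0.664 and 3.43 CPM), Socs3 (0.981 and 4.65 CPM), Atf3 (1.01 and 3.82 CPM), Klf2 (3.23 and 7.58 CPM), Klf6 (26.9 and 45.0 CPM), Fosl2 (79.6 and 123 CPM), Btg2, Dusp1, Fosb and Zfp36. Fosl2 stood at 215 CPM in the diabetic-only cluster. In the shared clusters it was 1.29- to 1.30-fold higher, under the fold required. Fos itself was at 253 and 378 CPM, just under the fold required, and Jun at 344 and 396 CPM. The count was 10 in the immediate early cluster but 1 in the largest shared cluster, with a median of -0.05 over 18 genes, and 1 in the Gsta2 and Calml3 cluster. Genes of this list led the immediate early cluster, so these counts do not locate the difference. At 5000 UMIs a Basal cell had a median of 7 UMIs over the list in control and 8 in diabetic cells, with upper quartiles of 14 and 18. The promoter of Btg2 (chr1:134079106-134079405, minus strand) is shown because it holds the cAMP response element TGACGTCA, in capitals, 166 to 159 bases before the start.
Btg2: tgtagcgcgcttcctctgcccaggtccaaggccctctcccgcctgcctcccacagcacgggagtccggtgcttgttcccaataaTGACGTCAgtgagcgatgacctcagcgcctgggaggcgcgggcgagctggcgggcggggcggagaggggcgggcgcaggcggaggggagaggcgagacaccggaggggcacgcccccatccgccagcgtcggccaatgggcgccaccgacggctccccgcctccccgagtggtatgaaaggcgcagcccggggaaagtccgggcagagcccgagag
Of 20 genes of the immediate early list with a window 3 held that element (Btg2, Dusp1 and Maff), and of all windows 1.79%.

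Of the glucose response list 2 of 11 were higher, Txnip and Klf10 (11.3 and 18.4 CPM), and the median was -0.05. The Txnip relative Arrdc4 was at 16.04 and 20.99 CPM and the glucose transporter Slc2a1 at 25.3 and 22.1 CPM, neither past the rule. Of the insulin and IGF list 2 of 14 were higher, the insulin receptor Insr (9.37 and 15.4 CPM) and Igfbp7 (3.77 and 16.2 CPM), with a median of 0.19. Igfbp7 was at 149 and 175 CPM in LSC cells, and without the diabetic-only cluster Insr was no longer past the rule (log2 ratio 0.46). Of the osmolyte list 1 of 12 was higher, Slc6a6. The osmotic stress factor Nfat5 was at 54.0 and 70.0 CPM and the cotransporter Slc12a2 at 64.9 and 94.3 CPM. Of the polyol, hexosamine and glycation list 0 of 14 were higher and 1 was lower, Akr1b7 (5.85 and 1.04 CPM), which was at 435 and 214 CPM in Wing cells. Aldose reductase Akr1b3 was at 170 and 136 CPM in Basal cells.

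Cholesterol synthesis genes stood lower as a group. Of 25 measured members 8 were lower and 0 higher, 22 had a ratio under 1, and the median was -0.46. They run along the pathway. Idi1 (1.71-fold) acts before squalene, Fdft1 makes it (39.5 and 23.1 CPM, 1.71-fold) and Sqle oxidizes it (43.5 and 26.9 CPM, 1.62-fold). Cyp51 (47.4 and 30.6 CPM), Msmo1 (94.3 and 59.4 CPM), Hsd17b7 (9.65 and 3.67 CPM) and Dhcr7 (9.27 and 5.95 CPM) act on the sterol ring. Insig1, which holds back the sterol-sensing machinery, was at 26.9 and 11.8 CPM, 2.27-fold lower. Hmgcs1, which acts near the start of the pathway, was not past the rule (168 and 160.2 CPM). The count was 6 to 8 in the 3 shared clusters and 9 without the diabetic-only cluster. The sterol element TCACNCCAC was in the window of 1 of 18 list genes with one (Hmgcs1), and in 1.24% of all windows.

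Interferon response genes were lower from a low level. Of 25 measured members 8 were lower and 0 higher, 20 had a ratio under 1, and the median was -0.21. Isg15, a ubiquitin-like protein, was at 11.1 and 5.89 CPM in Basal cells, from 350 and 199 counts, and Xaf1 at 10.6 and 6.51 CPM. Ifit1 (1.65 and 0.503 CPM), Ifit1bl1 (2.97 and 0.533 CPM), Ifit3 (2.15 and 1.21 CPM), Ifit3b, Oasl2 and Rtp4 were all under 4 CPM. In Squam cells the same genes were far higher, with Isg15 at 364 and 203 CPM and Ifit3 at 89.2 CPM in control, and the part of outer cells' RNA in the Basal level was not tested. The signalling genes Stat2 (4.78 and 4.89 CPM) and Irf9 (12.8 and 12.2 CPM) were not past the rule. At a minimum of 200 counts 2 members stayed past it. The promoters of Isg15 (chr4:156200769-156201068, minus strand) and Ifit3 (chr19:34583279-34583578, plus strand) are shown for their interferon-stimulated response elements, in capitals.
Isg15: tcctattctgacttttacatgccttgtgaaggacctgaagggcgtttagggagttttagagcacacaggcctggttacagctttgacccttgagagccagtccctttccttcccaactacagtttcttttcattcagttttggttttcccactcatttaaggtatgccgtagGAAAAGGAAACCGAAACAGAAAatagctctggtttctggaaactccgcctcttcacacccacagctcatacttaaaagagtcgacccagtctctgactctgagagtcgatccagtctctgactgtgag
Ifit3: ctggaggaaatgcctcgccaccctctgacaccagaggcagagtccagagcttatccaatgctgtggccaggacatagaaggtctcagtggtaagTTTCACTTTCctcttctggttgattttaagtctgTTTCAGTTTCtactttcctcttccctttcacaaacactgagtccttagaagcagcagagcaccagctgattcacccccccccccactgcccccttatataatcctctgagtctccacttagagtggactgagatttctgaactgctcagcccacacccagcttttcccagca
In Isg15 the 3 matches overlap one another, and in Ifit3 there were 2. Of 24 list genes with a window 14 held a match, among them 5 of the 7 lower genes with a window, and of all windows 3.44%. Ifit3 and Ifit3b are near copies.

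**Figure D4:**
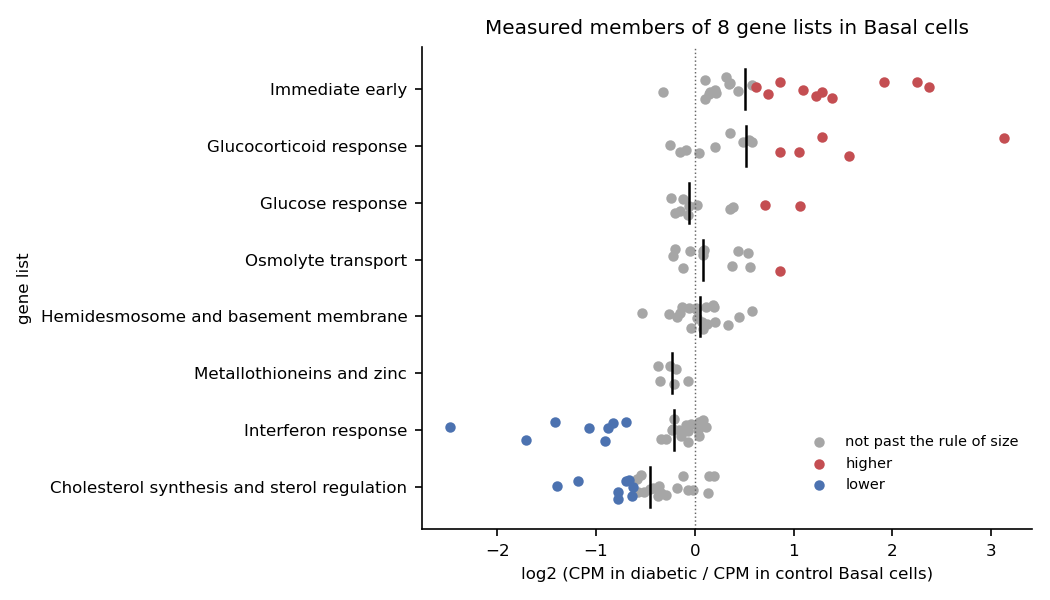
Log2 ratio of the level in diabetic over control Basal cells (horizontal axis) of each measured gene of 8 lists (vertical axis), coloured where it passed the rule of size, with a black line at the list's median. Medians were 0.51 for immediate early, 0.52 for glucocorticoid, -0.21 for interferon and -0.46 for cholesterol genes, and 0.05 for hemidesmosome genes, of which 0 passed the rule.

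Genes that define the basal position showed little difference. Of the hemidesmosome and basement membrane list 0 of 20 were past the rule, with a median of 0.05. Its largest ratios were those of Itga2 (15.4 and 23.004 CPM) and Lamb3 (26.5 and 36.1 CPM) above 1 and of Hspg2 (4.94 and 3.40 CPM) below 1. Itga6 was at 223 and 234 CPM and plectin (Plec) at 253 and 247 CPM. The basal and corneal keratins Krt5 (6535 and 6479 CPM), Krt14 (504 and 609 CPM), Krt15 (189 and 235 CPM) and Krt12 (21940 and 23664 CPM) gave 0 of 4. Of the epithelial transcription factors 1 of 19 was higher, Ovol2 (18.5 and 28.3 CPM), and 1 lower, Sox9 (40.7 and 27.0 CPM), while the eye master regulator Pax6 was at 507 and 611 CPM and Trp63 at 187 and 206 CPM. Ovol2 and Sox9 were no longer past the rule without the diabetic-only cluster (log2 ratios 0.37 and -0.48). Of the metallothionein and zinc list 0 of 6 passed, with 6 of 6 ratios under 1 and a median of -0.23. Of the Wnt list 1 of 23 was higher, Porcn (10.5 and 16.4 CPM; log2 ratio 0.52 and not past the rule without the diabetic-only cluster), and 1 lower, Wnt5b (1.80 and 0.444 CPM), and Wnt4 was at 602 and 487 CPM.

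In the growth and fate lists, 0 to 3 members passed. Of the FGF list 1 of 9 was lower, Fgfbp1, and the median was -0.22. The EGF receptor (0 of 10), Notch (0 of 12) and TGF-beta and BMP lists (0 of 17) had medians of 0.17, -0.06 and 0.05. Of the cyclin and inhibitor list E2f1 was higher (0.696 and 1.54 CPM) and the inhibitors Cdkn2a (2.15 and 0.385 CPM) and Cdkn2b (12.1 and 6.66 CPM) lower, of 16, while Ccnd1 was at 864 and 737 CPM. Of the p53 list 1 of 16 was higher, Gadd45g (1.04 and 2.72 CPM). Of the circadian list Cry1 (3.89 and 9.33 CPM) and Arntl (2.56 and 4.00 CPM) were higher and Bhlhe41 lower, of 16. Without the diabetic-only cluster Arntl was not past the rule (log2 ratio 0.28). Of the nerve and axon guidance list Nrp2, a receptor of semaphorins, was higher (0.380 and 3.67 CPM) and Sema3d lower (15.5 and 8.82 CPM), of 18.

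In each of the metabolic and stress lists, 0 or 1 members passed the rule. Of the nuclear oxidative phosphorylation list 0 of 20 passed, with 18 of 20 ratios under 1 and a median of -0.15. Of the glycolysis list 1 of 15 was lower, Ldhb (37.2 and 23.2 CPM), with a median of -0.16. Of the antioxidant list 1 of 21 was higher, Gclc of glutathione synthesis (42.9 and 66.3 CPM), of the crystallin and aldehyde dehydrogenase list 1 of 10, Aldh1a1 (76.5 and 119 CPM), of the fatty acid and PPAR list 1 of 16, Plin2, and of the heat shock list 1 of 14, Cryab. Gclc, Aldh1a1 and Plin2 were no longer past the rule without the diabetic-only cluster (log2 ratios 0.42, 0.54 and 0.44). Medians of these 4 lists were -0.05, 0.11, -0.04 and 0.10. The unfolded protein list gave 0 of 17 (median -0.05), the SR splicing list 1 lower of 12, Srsf5 (-0.19), the MHC class I list 1 lower of 11, Psmb9 (32.3 and 18.9 CPM; -0.11), and the inflammatory list 1 lower of 10, Il1a (1.23 and 0.385 CPM; 0.03).

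Junction and outer layer genes follow. The desmosome list gave 0 of 18 (median -0.04) and the cornified envelope list 0 of 5 (-0.07). Of the tight junction list Cldn1 was higher (3.16 and 7.85 CPM) and Cldn23 (2.53 and 0.444 CPM) and Cldn3 (2.15 and 1.10 CPM) lower, of 13. Of the membrane mucins Muc4, Muc15 (8.04 and 2.28 CPM) and Muc20 (1.202 and 0.385 CPM) were lower, of 5, and of the wound repair list Krt6a and Krt6b, of 13. Cldn23 was at 445 and 424 CPM in Squam cells, Cldn3 at 294 and 275 CPM in Conj cells and Muc20 at 348 and 373 CPM in Squam cells.

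Of the genes past the rule, 49 of the higher and 103 of the lower had a level in Basal cells under 0.2 of that in another label. Psca was at 80.0 and 38.5 CPM in Basal cells while it was at 28930 and 40529 CPM in Squam cells, and at 146 and 95.5 CPM in Immune cells, which should lack it. Asprv1 (85.2 and 33.8 CPM in Basal, 271 and 127 CPM in Immune cells), Krt6a (84.3 and 35.5; 83.3 and 31.8 CPM), Krt6b (46.2 and 14.8; 83.3 and 95.5 CPM) and Hopx were also found in Immune cells. The Immune levels come from 26 control and 10 diabetic cells and rest on few UMIs. These were 14 and 3 for Psca, 26 and 4 for Asprv1, 8 and 1 for Krt6a, 8 and 3 for Krt6b and 6 and 1 for Hopx. The histone gene Hist1h2ap, at 1150 and 649 CPM in TAC2 cells, was at 31.4 and 11.9 CPM in Basal cells. On the higher side Gpha2, a glycoprotein hormone subunit of limbal cells, was at 115 and 254 CPM in Basal cells and at 2875 and 2049.7 CPM in LSC cells. Dusp1, Cryab, Gda, Defb1 and Pim1 were also higher in Basal cells and, among the epithelial labels, highest in Squam or Conj cells. Dusp1 was higher still in Immune cells, at 500 and 573 CPM from 48 and 18 UMIs. In the diabetic-only cluster Defb1 was at 96.8 CPM, against 27.6 CPM in the other diabetic and 22.3 CPM in control Basal cells. Gda and Pim1 were at 128 and 63.8 CPM there, against 67.6 and 44.2 CPM in all diabetic Basal cells. How far free RNA sets these values was not tested.

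Few Basal cells carried mitotic transcripts, and the intervals of the libraries overlapped. At 5000 UMIs, at least 2 UMIs of mitotic genes (the G2 and M phase list) were found in 6.60% (interval 5.63 to 7.67%) of 2365 control and 5.95% (5.02 to 6.995%) of 2318 diabetic Basal cells. In TAC2 cells the shares were 86.6% and 93.1%, in TAC1 cells 23.7% and 25.4%, and in Wing cells 3.28% and 6.13%. Unthinned, the Basal shares were 14.9% and 15.995%. The thinning left out 140 control and 64 diabetic Basal cells with fewer UMIs. Of the G2 and M phase list Prc1 was higher (4.56 and 8.47 CPM) and Birc5 lower (3.67 and 2.40 CPM), of 13, with a median of -0.13, and of the S phase list 0 of 16 passed (-0.07). Without the diabetic-only cluster Birc5 was not past the rule (log2 ratio -0.54).

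The other layers come from the same 2 libraries, and the values of named genes there are given beside those of Basal cells. Fkbp5 was at 14.7 and 53.2 CPM in TAC1 and at 32.2 and 93.5 CPM in Wing cells, and Slc6a6 at 826 and 1366 CPM in TAC1 and 963 and 1161 CPM in LSC cells. Tmprss11d was at 516 and 248 CPM in TAC1 and 53.2 and 31.5 CPM in LSC cells. Zfp36 and Nfe2l3 were not higher in LSC cells, at 23.9 and 23.7 CPM and at 39.0 and 35.0 CPM. Whether the size of any difference varied between labels was not tested.

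**Figure D5:**
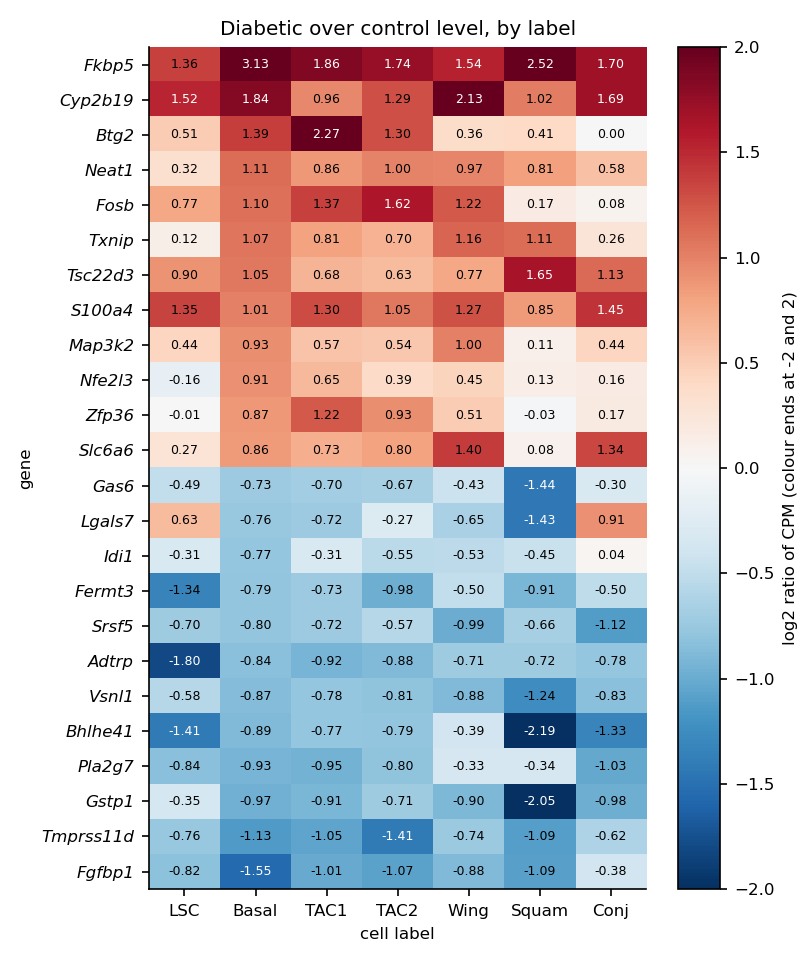
Log2 ratio of the level in the diabetic over the control library (colour and number in each cell) of the 24 named genes (vertical axis) in 7 epithelial labels (horizontal axis). In Basal cells Fkbp5 stood at 3.13 and Fgfbp1 at -1.55, and Lgals7 went from -0.76 in Basal to 0.63 in LSC cells.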

How the data were processed

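Counts of UMIs per gene and cell were deposited by the authors for 17492 genes and 17808 cells, as whole numbers that are not normalized, with a cell table that gives each cell's group and 1 of 8 labels. The submitters' processing notes name mm10, Cell Ranger 5.0.0 and Seurat 4 and give no role for any of them. How cells were filtered and labelled is not given in the sources used here.

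Within each library, the cells of 1 label were summed and scaled to CPM, with exact Poisson intervals; ratios have exact conditional binomial intervals. Nothing was tested, since each group was 1 library. Doublets were scored with Scrublet, whose automatic threshold marked 0 cells in either library and so did not work; likely doublets were kept, and an alternative left out the top 8% of scores. For shares of cells, each cell was thinned to 5000 UMIs. Clusters came from 2000 variable genes, ranked within each library, 30 components and the Leiden method, run once. The libraries were not aligned to each other before clustering. The rule of size was tried on simulated Poisson counts with known folds, drawn from the summed Basal profile of both libraries. Those counts held no variation between mice or libraries, so they say nothing about error from that source.

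The members and the 38 gene lists were chosen with earlier results of these data known. Named genes were the top 12 each way by log2 ratio, with 10 CPM added to both levels, among genes past the rule with 20 CPM or more in the higher library and at least 0.2 of the level of the highest epithelial label; the 12 leading label genes each way; the label's markers; up to 3 list members per direction; the 10 genes of highest Fano factor; and genes past the rule the other way in another label. Ribosomal protein genes, gene models, Xist, Y-linked and mitochondrial genes were left out. The genes left out were extended after values were seen, and some results are not reported here. Other genes with values, genes mainly of another label, the printed promoters and the alternatives by cluster were also chosen after seeing the data. Positions are from GENCODE M21 on GRCm38, which mm10 names. Promoters are RefSeq windows. Clustering used scanpy 1.11.5, scikit-learn 1.9.0 and leidenalg 0.10.2, intervals scipy 1.17.1, and figures matplotlib 3.10.9. Arrays and tables were handled with numpy 2.4.6 and pandas 2.3.3 in Python 3.11.15.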

Additional observations from a re-analysis of the deposited data

Results flagged for a closer look

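Some genes past the rule of size in Basal cells were past it in the opposite direction in another epithelial label. Each value below is the log2 ratio of diabetic over control in that other label, and the difference between the labels was not tested. Some of these genes, such as Plin2 and Birc5, were not past the rule in Basal cells without the diabetic-only cluster.

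In LSC cells Lgals7 was at 0.63, although it was lower in Basal cells (-0.76). Col12a1, a collagen (1.51), Ttc9 (1.04), Ly6a (0.83) and the mitotic genes Birc5 (1.77) and Cenpa (1.48) were higher in LSC and lower in Basal cells. G0s2, a lipase inhibitor (-1.68), and the simple epithelial keratin Krt18 (-1.03) were lower in LSC and higher in Basal cells. LSC cells numbered 202 in control and 331 in diabetic cells. Some of these ratios rest on few UMIs in LSC cells, with 9 in control and 54 in diabetic cells for Col12a1 and 10 and 72 for Birc5.

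In Squam cells the immediate early genes Klf2 (-1.06) and Dusp1 (-0.74), the endocytosis gene Dnm3 (-0.82) and the nucleotide sugar transporter Slc35d1 (-0.90) were lower, and they were higher in Basal cells.

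In Conj cells the lipid droplet gene Plin2 (-0.70), the peptide transporter Slc15a2 (-1.32) and the oxidase Aox3 (-0.68) were lower and in Basal cells higher. AA467197 (1.04), Iffo2 (0.77), Myadm (1.25), Lgals7 (0.91), Birc5 (2.29), Hist1h2ap (0.79), Hist1h2ae (1.42) and Psca (0.73) were higher there and lower in Basal cells. The Conj ratio of Birc5 rests on 11 control and 54 diabetic UMIs. In Basal cells AA467197, Ly6a, Birc5, Cenpa and Psca had under 0.02 of the level of their highest label.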

How the results depend on the processing

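The number of genes higher in diabetic Basal cells was 303, and 180 at a minimum of 200 counts; the number of genes lower in diabetic Basal cells was 274, and 161 at that minimum. Median-of-ratios scaling, a minimum of 10 counts, equal weight per cell, thinning, and leaving out doublets, cells over 10% mitochondrial or cycling cells, taking Basal-majority clusters only, or a total without the 20 most abundant genes kept both within 1.5 times, as did Basal and LSC together, where 68.4% of the genes past the rule were higher, against 52.5%, and Lgals7 of the 24 named genes was no longer past it. The genes differed more than the counts: after thinning 149 of the 303 and 132 of the 274 were past the rule, of 425 still measured, and with LSC cells added 259 and 176. The next alternatives were chosen after seeing the data. Leaving out shared barcodes gave 304 and 275. Without the diabetic-only cluster 167 were higher (37.4%), and Porcn, Birc5 and Arntl were also no longer past the rule (log2 ratios 0.52, -0.54 and 0.28). In the largest shared, the immediate early and the Gsta2 and Calml3 cluster 107, 114 and 100 were higher and 178, 160 and 125 lower, from fewer cells. Of the gene lists in diabetic against control Basal cells, 67 members passed, and 39 in the largest shared and 38 in the Gsta2 and Calml3 cluster. Of 4 lists followed, picked after their counts were seen, the interferon list had 8 members lower, 2 at a minimum of 200 counts, 2 after thinning, and 3, 3 and 1 in the 3 clusters. The immediate early list had 10 higher, and 1 in each of the largest shared and the Gsta2 and Calml3 cluster; the glucocorticoid list had 5, and 3 in each of these. The cholesterol count stayed between 6 and 11.

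The number of genes higher in Basal cells than in all other cells, 687, was 331 under median-of-ratios scaling, 443 at 200 counts, 433 with equal weight, 346 after thinning and 84 at a fold of 3. The share of Basal cells in each library, 26.1% and 29.0%, was 27.4% and 30.2% without likely doublets and 27.5% and 30.7% of labels without Conj and Immune; in clusters with mostly Basal cells the diabetic share was 32.3%. The share of Basal cells with G2 and M phase UMIs was 20.5% in both libraries at 1 UMI, 3.00% and 2.67% at 3, and 11.7% and 11.5% at 10000 UMIs.

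The log2 ratio changed sign with LSC cells added for Krt6a (0.047), Cldn3 (0.27) and Birc5 (0.096), and in the largest shared cluster for Fosb (-0.37), Dusp1 (-0.77) and Arntl (-0.065). The causes were not tested. No paired analysis was possible because each group had 1 library. Genes under 50 counts could not be judged, and no alternative stands in for a replicate.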
